A study of Rattus norvegicus with 6 samples.

Results

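The genes described here are 39 listed interferon response genes: 7 sensors and their adaptors, 9 receptors, transcription factors and their partners, 6 enzymes of the ISG15 and ADP-ribose systems, and 17 antiviral and other effectors. They were taken by symbol from a table of read counts with 17487 symbols, summing the rows of a symbol. A row was matched for 36 of the 39, 1 of them, Tmem173, under its current symbol Sting1, and Ifnar2, Herc6 and Xaf1 were not analysed here. A filter on low counts left 32 members among 9205 tested symbols, and removed Zbp1, Ifnar1, Ifit1 and Mx1.

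RNA came from the hearts of 6 adult male Wistar rats, an outbred stock, with 1 mRNA library for each animal and 3 animals in each group. Doxorubicin rats had 3.75 mg/kg of doxorubicin hydrochloride, an anthracycline used in chemotherapy, into the tail vein once a week over 4 weeks, and control rats had 0.9% sodium chloride by the same route and schedule. The sources used here do not state which part of the heart was taken, how long after the final dose, or how intact the RNA was. Library totals ran from 2219685 to 3508282 counts, so that 3 counts, the smallest level called detectable here, were worth 0.855 to 1.35 CPM, which are counts scaled by library size. All 9 cardiomyocyte markers were detected, at a summed level of 134762 to 158064 CPM in control and 110802 to 125504 CPM in doxorubicin libraries. The p-values set the group difference against the spread between these few animals, estimated with information shared over all tested symbols. Levels are CPM scaled by trimmed mean of M-values (TMM) and are not corrected for gene length, so they are compared between libraries and not between genes. In whole tissue a smaller number of cells of a type and less RNA for each cell cannot be told apart.

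Interferons are secreted proteins that warn cells of viral nucleic acid or damage. Sensor proteins in the cytoplasm detect foreign or misplaced RNA and DNA and switch on interferon genes, and secreted interferon binds receptors that act through Jak kinases and STAT proteins. A complex that contains Stat2 and Irf9 then binds a short DNA element, the interferon-stimulated response element or ISRE, in front of a shared set of genes whose products block viral replication, tag proteins or feed back on the pathway. In the heart, resident macrophages, endothelial cells, fibroblasts and cardiomyocytes can all carry out this response.

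The regulatory sequence in front of the members is shown first, because an interferon element there is a feature that many of them share. The list was made of interferon response genes, so a high share of such elements is not independent of that choice. The 250 bases upstream of the annotated start were taken from RefSeq (assembly GRCr8) for 30 of the 39 members. An ISRE core, searched as GAAANNGAAA on both strands, was present in 15 of the 30 (50.0%), against 1140 of all 33469 upstream windows of that length in the table (3.41%). The shorter gamma-activated sequence of STAT dimers, searched as TTCNNNGAA, which reads the same on both strands, was present in 6 of the 30 (20.0%), against 2566 of all windows (7.67%). A match is a description of letters and not evidence that a factor binds there. Below are the 100 bases immediately upstream of the start of 6 members with a match and, for comparison, of the receptor gene Ifngr1, which had none in its window. Capitals mark the ISRE core and, in Parp14, also the STAT sequence that precedes it.
Irf7 (chr1:205800024-205800123, minus strand): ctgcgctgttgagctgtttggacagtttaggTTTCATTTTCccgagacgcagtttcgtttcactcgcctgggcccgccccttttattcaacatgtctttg
Ifit3 (chr1:241527226-241527325, plus strand): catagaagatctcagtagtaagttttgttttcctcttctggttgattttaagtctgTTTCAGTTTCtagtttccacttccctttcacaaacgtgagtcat
Oas1a (chr12:41330366-41330465, plus strand): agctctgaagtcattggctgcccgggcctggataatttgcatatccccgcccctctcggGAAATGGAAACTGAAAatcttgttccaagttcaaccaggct
Parp14 (chr11:78408034-78408133, plus strand): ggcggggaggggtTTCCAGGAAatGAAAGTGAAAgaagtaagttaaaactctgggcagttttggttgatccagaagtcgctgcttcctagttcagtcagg
Gbp5 (chr2:233910899-233910998, plus strand): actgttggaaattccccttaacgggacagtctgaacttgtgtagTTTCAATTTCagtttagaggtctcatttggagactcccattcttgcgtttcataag
Lgals3bp (chr10:104127849-104127948, minus strand): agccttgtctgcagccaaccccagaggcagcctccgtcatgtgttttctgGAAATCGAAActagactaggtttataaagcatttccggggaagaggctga
Ifngr1 (chr1:16152810-16152909, plus strand): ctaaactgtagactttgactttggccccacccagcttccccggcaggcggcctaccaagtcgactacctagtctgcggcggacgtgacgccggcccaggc
Counted back from the start to the first base of the match as printed, the core began 69 bases before the start of Irf7, 44 before Ifit3, 76 before Parp14, 56 before Gbp5 and 50 before Lgals3bp. In Oas1a 2 cores overlapped, beginning at 41 and 35 bases. In Irf7, Ifit3 and Gbp5 the core lay on the opposite strand and reads here as its reverse complement.

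For each of the 32 tested interferon response genes the treated and control rats overlapped. Of the 32 tested members, 0 passed a Benjamini-Hochberg adjusted p of 0.05 in edgeR's quasi-likelihood test, against 0.0543% of all tested symbols. At an unadjusted p under 0.05 there was 1 member higher in doxorubicin, Gbp5, and 0 lower, against 4.00% and 4.11% of all tested symbols. In both directions together the members' share was 3.12%, against 8.10% of all tested symbols. DESeq2 on the 35 matched members with reads and limma voom on the 32 also placed 0 past the adjusted threshold, with 1 each at an unadjusted p under 0.05. The 3 doxorubicin values lay wholly above the 3 control values for 0 members and wholly below for 0, where 6.39% and 7.06% of all tested symbols had groups that did not overlap in these directions. The fitted log2 fold change, doxorubicin minus control, was above 0 for 26 of the 32 (81.2%), against 52.1% of all tested symbols. Its median was 0.19 over the members and 0.02 over all tested symbols.

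Doxorubicin library 2 held the highest value of 27 of the 32 members (84.4%), whereas it held the highest value of 12.5% of all tested symbols. Each of the other 5 libraries was highest for 0 to 2 members (0 to 6.25%), against 9.61% to 26.7% of all tested symbols. Doxorubicin library 3 was the lowest for 12 members (37.5%, against 20.5% of all tested symbols). Doxorubicin library 1 was the lowest for 5 (15.6%, against 17.4%), and control library 1 for 13 (40.6%, against 27.5%). The SD of log2 CPM was larger in the doxorubicin than in the control group for 22 members (68.8%), against 47.5% of all tested symbols.

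**Figure D1:**
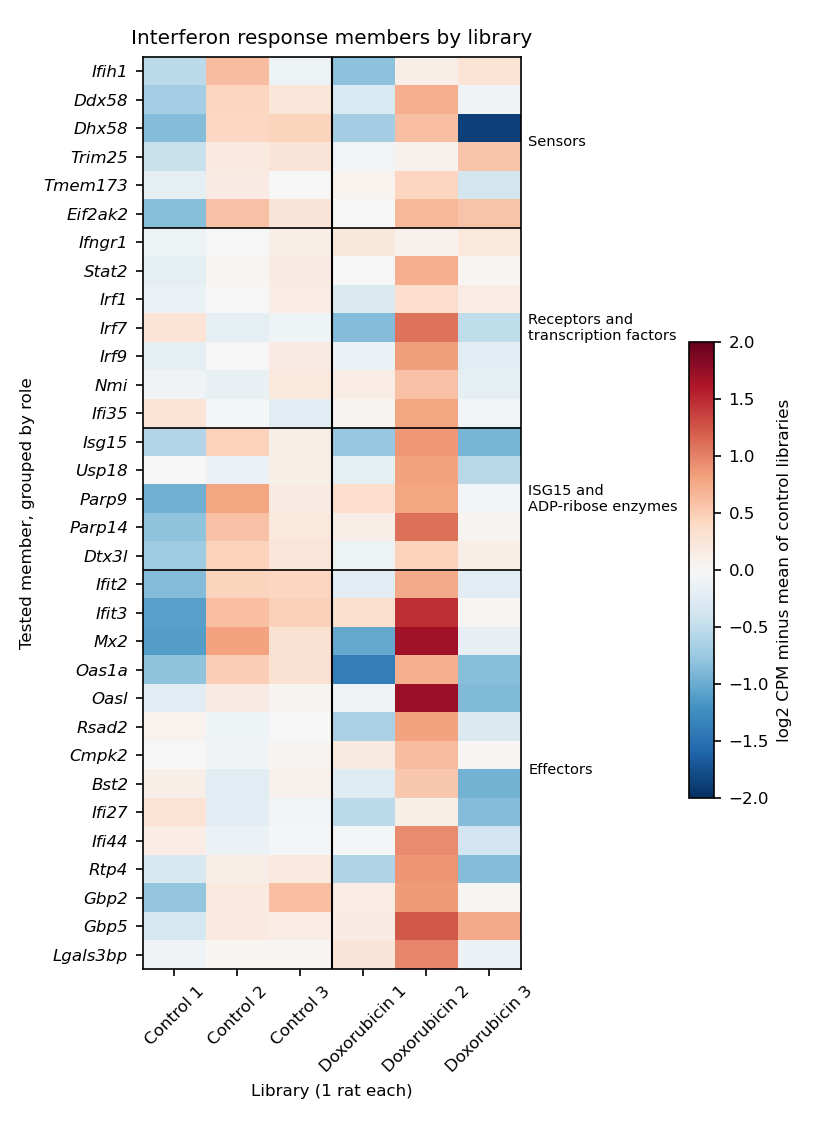
Heat map of the 32 tested members (rows, grouped by role) in the 6 libraries (columns), as log2 CPM minus the mean of the 3 control libraries on a clipped color scale. Doxorubicin library 2 is the column above the control mean for all rows, and it is the highest library for 27 of them.

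Because an earlier report on these data gave doxorubicin library 2 a higher interferon mean, the comparison was also made without it. Leaving out the library that is highest for most members lowers their treated mean by construction. The shares of all symbols given beside the counts had no such selection, so a decrease in the other treated rats cannot be read from them. With doxorubicin library 2 left out, the sign of the median turned. The log2 fold change was then above 0 for 10 of the 32 members (31.2%), against 52.6% of the 9387 symbols tested in that fit, and the median was -0.15, against 0.02 over all symbols. Still 0 members passed the adjusted threshold, against 0.373% of all symbols. At an unadjusted p under 0.05 there were 0 members higher and 7 lower, 21.9% against 5.15% of all symbols higher and 4.39% lower. Those 7 were Dhx58, Irf7, Isg15, Oas1a, Bst2, Ifi27 and Rtp4, with edgeR adjusted p between 0.325 and 0.515. Bst2, Irf7, Isg15, Oas1a and Rtp4 are described with their fits for this reason, after their values were seen. Doxorubicin libraries 1 and 3 both lay below all 3 control libraries for 8 members (25.0%, against 14.0% of all tested symbols) and both above for 1, Ifngr1 (3.12%, against 12.1%). The 8 were Irf7, Isg15, Usp18, Oas1a, Rsad2, Bst2, Ifi27 and Rtp4. In both directions together, 9 members (28.1%) did not overlap, against 26.1% of all tested symbols. Leaving out control library 1 instead brought the median of the members to 0.04, against 0.02 over all symbols in that fit.

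**Figure D2:**
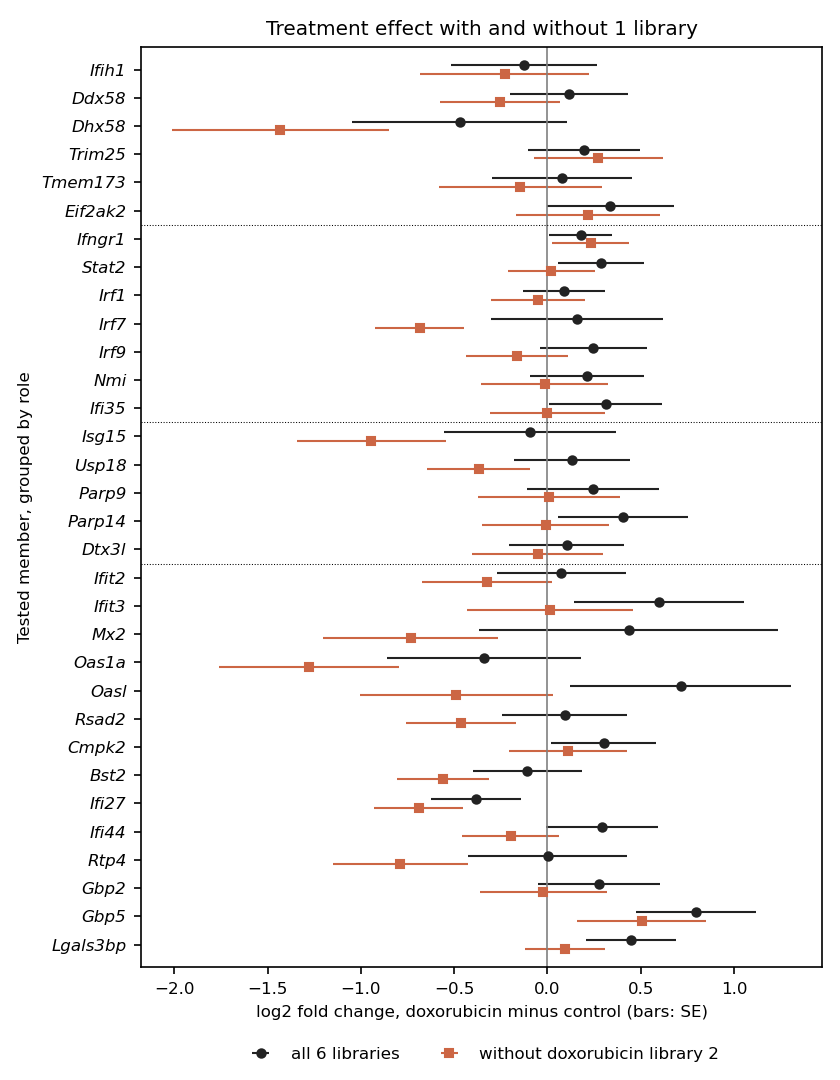
Log2 fold change (doxorubicin minus control, bars are standard errors) of the 32 tested members, by role, with all 6 libraries (black circles) and without doxorubicin library 2 (orange squares). The squares lie to the left of the circles for most members, and 22 of the 32 squares are below 0.

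Among the sensors, 4 of 6 tested genes had a log2 fold change above 0 and the median was 0.10. Ifih1 and Ddx58 encode MDA5 and RIG-I, helicases that detect double-stranded viral RNA. Ifih1 had 7.64, 17.8 and 10.5 CPM in control libraries 1, 2 and 3 and 6.10, 12.5 and 13.9 CPM in doxorubicin libraries 1, 2 and 3. Ddx58 had 20.2, 44.4 and 38.6 CPM in the control and 26.3, 54.6 and 30.9 CPM in the doxorubicin libraries, in the same order, which is kept below. Both groups spanned more than the difference between their means, and control library 1 was the lowest control for both genes.

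Dhx58, the related helicase LGP2 that tunes the other sensors, had 4.20, 11.1 and 11.4 CPM in control and 4.81, 12.8 and 1.77 CPM in doxorubicin libraries. Its highest and its lowest value were both in doxorubicin rats, on 41 and 6 counts. Treated against control, the change was -0.47 (SE 0.58, adjusted p 0.875) on the log2 scale, and -1.43 (SE 0.58, adjusted p 0.446) without doxorubicin library 2. Trim25, a ubiquitin ligase that activates RIG-I, had 10.3, 16.4 and 17.3 CPM in control and 13.8, 15.3 and 21.5 CPM in doxorubicin libraries, a log2 fold change of 0.20 (SE 0.30, adjusted p 0.894). Eif2ak2, which encodes the RNA-activated kinase PKR that halts translation, had 8.78, 24.9 and 19.6 CPM in control and 16.4, 26.2 and 24.5 CPM in doxorubicin libraries, a log2 fold change of 0.34 (SE 0.34, adjusted p 0.835), and 0.22 (SE 0.39, adjusted p 0.895) without doxorubicin library 2. For these genes the groups overlapped, and control library 1 was the lowest of all 6 libraries for Trim25 and Eif2ak2.

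Tmem173, the adaptor STING that relays the signal of cytoplasmic DNA, was low, on 16 to 31 counts. It had 6.11, 7.9966 and 7.10 CPM in control and 7.38, 9.67 and 5.31 CPM in doxorubicin libraries. Its highest value was in doxorubicin library 2 and its lowest in doxorubicin library 3. Zbp1, a sensor of left-handed nucleic acid, had 0 to 4 counts in any library, and no difference was detectable at this depth.

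Of the receptors, only the interferon gamma receptor chain Ifngr1 could be followed. It had 123, 131 and 142 CPM in control and 155, 140.1 and 153 CPM in doxorubicin libraries, with the smallest SD of log2 CPM over the 6 libraries among the 32 members, and a log2 fold change of 0.18 (SE 0.17, adjusted p 0.823). Control library 3 lay just above doxorubicin library 2, so the groups overlapped. The type I receptor gene Ifnar1 stood on 2 rows of the table with 1 count in all, and how the counting treated reads shared by repeated rows was not stated, so its level is not known from these values.

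All 6 tested transcription factors and partners had a log2 fold change above 0 and their highest value in doxorubicin library 2. Stat2, a STAT protein of the complex that binds the ISRE, had 43.5, 51.1 and 55.7 CPM in control and 50.1, 82.7 and 51.0 CPM in doxorubicin libraries, so that 2 of the 3 treated animals were inside the control range. Its log2 fold change was 0.29 (SE 0.23, adjusted p 0.786), and 0.02 (SE 0.23, adjusted p 0.987) without doxorubicin library 2. Irf9, a DNA-binding part of the same complex, had 23.3, 26.7 and 29.5 CPM in control and 24.4, 47.4 and 22.7 CPM in doxorubicin libraries. Irf7, the factor that amplifies production of alpha interferons, was the most uneven of the 6, with 109.6, 79.5 and 85.2 CPM in control and 49.1, 193 and 63.7 CPM in doxorubicin libraries. Doxorubicin library 2 was above every control and doxorubicin libraries 1 and 3 were below every control, so its log2 fold change turned from 0.16 (SE 0.46, adjusted p 0.957) with all libraries to -0.68 (SE 0.24, adjusted p 0.338) without doxorubicin library 2.

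Irf1, the factor most directly induced by interferon gamma, had 38.2, 41.8 and 46.6 CPM in control and 34.3, 53.7 and 46.6 CPM in doxorubicin libraries. Nmi and Ifi35 encode interferon-induced proteins that bind each other. Nmi had 11.8, 11.1 and 14.5 CPM in control and 13.8, 19.0 and 10.9 CPM in doxorubicin libraries, and Ifi35 had 18.3, 14.7 and 12.8 CPM and 15.7, 26.5 and 14.4 CPM. The log2 fold change of Ifi35 was 0.31 (SE 0.30, adjusted p 0.830), and 0.00 (SE 0.31, adjusted p 1.00) without doxorubicin library 2. For each of these 3 genes doxorubicin library 2 stood above the control range, and doxorubicin libraries 1 and 3 were at or below the highest control.

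Isg15 is a ubiquitin-like protein that is joined to other proteins, and Usp18 removes it and also quiets the interferon receptor. Isg15 had 9.55, 20.4 and 15.9 CPM in control and 8.35, 27.1 and 7.37 CPM in doxorubicin libraries. Usp18 had 29.0, 26.7 and 31.5 CPM in control and 25.4, 51.2 and 19.5 CPM in doxorubicin libraries. Both genes showed the pattern of Irf7, with 1 treated animal above and 2 below the control range. For Isg15 the fitted log2 difference was -0.09 (SE 0.46, adjusted p 0.974), and -0.94 (SE 0.40, adjusted p 0.468) without doxorubicin library 2, and that of Usp18 was 0.13 (SE 0.31, adjusted p 0.939), and -0.37 (SE 0.27, adjusted p 0.711) without it.

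Parp9 and Parp14 encode ADP-ribosyltransferases of interferon signalling, and Dtx3l the ubiquitin ligase that works with Parp9. In these 3 genes control library 1 was the lowest of all libraries. Parp9 had 17.2, 59.1 and 38.3 CPM in control and 43.3, 59.3 and 32.7 CPM in doxorubicin libraries, with control library 2 and doxorubicin library 2 nearly level. Parp14 had 17.9, 48.4 and 37.2 CPM in control and 35.0, 69.0 and 33.0 CPM in doxorubicin libraries. Dtx3l had 11.8, 27.5 and 23.6 CPM in control and 18.3, 27.5 and 21.8 CPM in doxorubicin libraries. Fitted log2 fold changes were 0.25 (SE 0.35, adjusted p 0.894) for Parp9 and 0.41 (SE 0.35, adjusted p 0.800) for Parp14. Without doxorubicin library 2 they were 0.01 (SE 0.38, adjusted p 0.996) and -0.01 (SE 0.34, adjusted p 0.996). The control spread of both genes was wider than the difference between the group means.

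**Figure D3:**
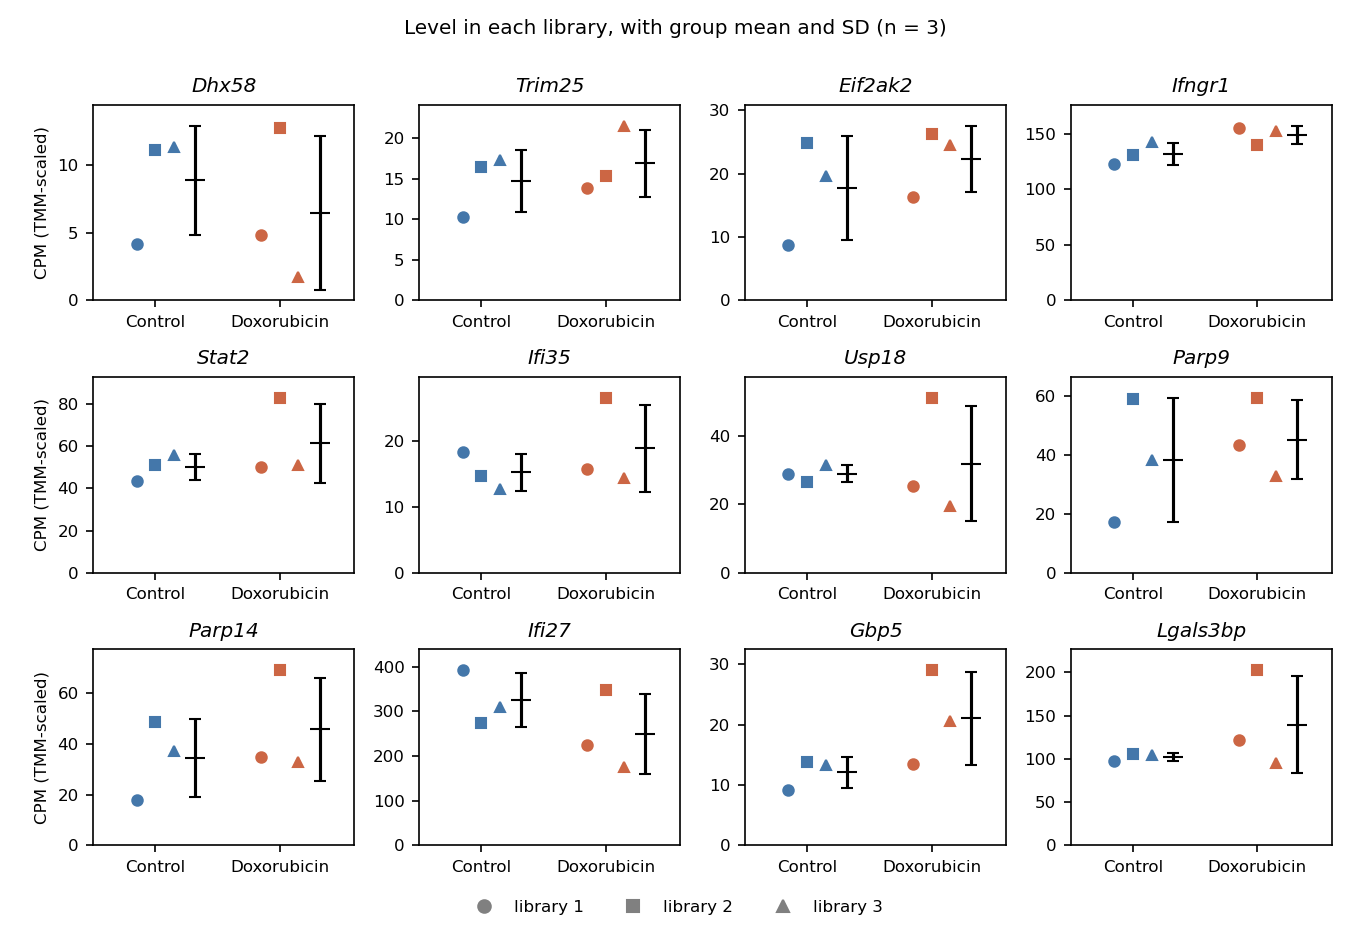
TMM-scaled CPM (vertical axes, from 0) of the 12 members whose fit is given by the naming rule, in control (blue) and doxorubicin (orange) libraries, with the marker shape giving the library number and the bar the group mean and SD (n = 3). The groups overlap in every panel, and the doxorubicin square, library 2, stands apart in Stat2, Ifi35, Usp18, Parp14 and Lgals3bp. In Gbp5 doxorubicin libraries 2 and 3 are both above every control.

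The effectors had the widest range of fitted changes, from -0.38 for Ifi27 to 0.80 for Gbp5, with 11 of 14 above 0 and a median of 0.28. Without doxorubicin library 2 the median was -0.39. The highest library was doxorubicin 2 for 13 of the 14, all but Ifi27.

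Gbp5 encodes a guanylate-binding GTPase that is strongly induced by interferon gamma. It had 9.16, 13.8 and 13.3 CPM in control and 13.5, 29.0 and 20.6 CPM in doxorubicin libraries, or 12.1 ± 2.55 against 21.0 ± 7.78 CPM (SD, n = 3). Doxorubicin libraries 2 and 3 were above every control, and doxorubicin library 1 lay between the controls. Its fitted log2 fold change was 0.80 (SE 0.32, adjusted p 0.534), at an unadjusted p of 0.0269 from the same edgeR fit, and 0.51 (SE 0.34, adjusted p 0.684) without doxorubicin library 2. Its relative Gbp2 had 18.3, 36.9 and 49.4 CPM in control and 36.0, 59.0 and 32.7 CPM in doxorubicin libraries. Guanylate-binding proteins are close paralogs, and how reads they share were counted was not stated.

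Lgals3bp, a secreted glycoprotein that binds galectins, had 97.4, 105 and 104 CPM in control and 122, 202 and 94.6 CPM in doxorubicin libraries, or 102 ± 4.23 against 139 ± 56.0 CPM (SD, n = 3). For Lgals3bp the fit gave 0.45 (SE 0.24, adjusted p 0.677) on the log2 scale, and 0.09 (SE 0.21, adjusted p 0.923) without doxorubicin library 2. The control values lay close together, and doxorubicin library 3 was below all of them.

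Mx2, a dynamin-like GTPase that traps viral particles, had 8.40, 33.3 and 23.6 CPM in control and 8.99, 62.1 and 16.8 CPM in doxorubicin libraries. Oasl, a member of the oligoadenylate synthetase family, had 4.58, 6.22 and 5.68 CPM in control and 5.14, 19.3 and 2.65 CPM in doxorubicin libraries, where library 2 held 62 counts and the other 5 libraries 9 to 20. Oas1a, which makes the messenger that activates RNase L, had 6.11, 16.0 and 13.9 CPM in control and 3.85, 18.7 and 5.89 CPM in doxorubicin libraries, and its log2 fold change went from -0.34 (SE 0.52, adjusted p 0.894) to -1.28 (SE 0.48, adjusted p 0.399) without doxorubicin library 2. In all 3 genes doxorubicin library 2 was the highest, and doxorubicin libraries 1 and 3 were within or below the control range.

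The Ifit genes encode proteins that bind viral RNA. Ifit2 had 18.3, 46.2 and 45.7 CPM in control and 29.2, 58.0 and 29.2 CPM in doxorubicin libraries, and Ifit3 had 4.96, 17.3 and 15.9 CPM and 14.1, 32.5 and 11.5 CPM. Both had their highest value in doxorubicin library 2 and their lowest in control library 1. Ifit1 had 59, 1 and 0 counts in the control and 28, 1 and 2 counts in the doxorubicin libraries. The 2 libraries with more than 2 counts were control library 1 and doxorubicin library 1, neither of them the highest for Ifit2 or Ifit3. The filter on low counts removed Ifit1 from the test. Mx1 stood on 6 rows and was listed at 0 in all 6 libraries, while Mx2, its paralog on 1 row, had 22 to 199 counts; how reads shared between repeated rows or paralogs were counted was not stated.

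Rsad2, which encodes viperin, and Cmpk2, a mitochondrial nucleotide kinase, are neighbors in the genome and are often induced together. Rsad2 had 23.3, 20.9 and 22.2 CPM in control and 13.8, 39.002 and 18.0 CPM in doxorubicin libraries, so that doxorubicin libraries 1 and 3 were below every control. Cmpk2 had 13.7, 12.9 and 14.2 CPM in control and 15.4, 21.2 and 13.9 CPM in doxorubicin libraries, with library 1 just above and library 2 well above the highest control. Ifi44 had 37.8, 31.1 and 33.2 CPM in control and 33.1, 66.1 and 25.9 CPM in doxorubicin libraries.

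Bst2 encodes tetherin, which holds budding virus at the cell surface. It had 216, 173 and 212 CPM in control and 166, 289 and 103 CPM in doxorubicin libraries, a log2 fold change of -0.11 (SE 0.29, adjusted p 0.951), and -0.56 (SE 0.25, adjusted p 0.494) without doxorubicin library 2. Ifi27, a small interferon-induced membrane protein, had 391, 274 and 309.5 CPM in control and 224, 348 and 176 CPM in doxorubicin libraries, or 325 ± 60.2 against 249 ± 88.6 CPM (SD, n = 3). It was the only one of the 14 tested effectors whose highest value was in a control animal, and its log2 fold change was -0.38 (SE 0.24, adjusted p 0.722), and -0.69 (SE 0.24, adjusted p 0.325) without doxorubicin library 2. Rtp4, a chaperone of receptor transport, had 11.5, 16.0 and 16.8 CPM in control and 9.31, 27.5 and 7.66 CPM in doxorubicin libraries, a log2 fold change of 0.00 (SE 0.43, adjusted p 1.00), and -0.79 (SE 0.36, adjusted p 0.515) without that library. For these 3 genes doxorubicin libraries 1 and 3 were below all controls.

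Other genes of the pathway were read from a second list, of which 64 had a row and 51 were tested. Of these, 0 passed the adjusted threshold in edgeR, and 7 had an unadjusted p under 0.05. Of the 7, 6 were higher (11.8% of the list, against 4.00% of all tested symbols) and 1 was lower (1.96%, against 4.11%). The median log2 fold change was 0.20, against 0.02 over all tested symbols. The ligand genes Ifnb1, Ifna2, Ifna4, Ifna5 and Ifnk were listed at 0 in all libraries, and Ifng had 1 count in each of 2 libraries, so none of these 6 ligand genes reached the 3 counts taken as detectable. Ifna genes are near-identical copies, and how reads they share were counted was not stated. The 5 genes of the list with the highest mean CPM were Stat3 (log2 fold change 0.32), Mavs (0.08), Ifitm3 (0.06), Jak1 (0.01) and Ly6e (-0.29), with edgeR adjusted p from 0.666 to 0.995. Doxorubicin library 2 was the highest for 25 of the 51 (49.0%, against 12.5% of all tested symbols), and without it the median was 0.12, so this list kept its sign where the members did not.

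In this second list 2 genes are named because of their values. Ifitm1, which restricts viral entry, had 8.40, 7.9966 and 8.24 CPM in control and 20.9, 19.0 and 18.3 CPM in doxorubicin libraries, with similar levels in all 3 treated rats, and a log2 fold change of 1.23 (SE 0.28, adjusted p 0.157), and 1.26 (SE 0.33, adjusted p 0.136) without doxorubicin library 2. The chemokine gene Cxcl11 had 58.0, 56.0 and 60.2 CPM in control and 27.3, 36.2 and 32.7 CPM in doxorubicin libraries, a log2 fold change of -0.86 (SE 0.20, adjusted p 0.157), and -0.94 (SE 0.24, adjusted p 0.135) without that library. In these 2 genes the groups did not overlap and doxorubicin library 2 lay between the other treated libraries or close to them. The other Cxcl chemokine genes of the list did not share the lower level of Cxcl11. Cxcl10 had 1.53, 3.55 and 4.83 CPM in control and 5.46, 8.74 and 7.07 CPM in doxorubicin libraries, without overlap. Its log2 fold change was 1.06 (SE 0.46, edgeR adjusted p 0.576). For Cxcl9 the groups overlapped, with a log2 fold change of 0.20 (SE 0.46, edgeR adjusted p 0.937). In the second list as a whole 6 genes were higher without overlap (11.8%) and 1 lower (1.96%), beside the 6.39% and 7.06% of all tested symbols.

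The sum of macrophage markers was highest in the same library as the members, as were those of general leukocyte, T and NK cell and fibroblast markers. Single genes were less uniform: that library was highest for 2 of 3 tested leukocyte, 1 of 3 T and NK cell and 1 of 4 fibroblast markers. The T and NK cell gene highest there was Cd4 (23.4 CPM), while Cd8a was lowest there (0.624 CPM). Fibroblast markers summed to 1289 CPM there, against 1275 CPM in doxorubicin library 3. Of the 4 plasmacytoid dendritic cell markers, Siglech had no row and Ccr9 was listed at 0, so their sum rested on Tcf4 and Il3ra. That sum was highest in doxorubicin library 1 (47.8 CPM, against 41.8 CPM in doxorubicin library 2). Il3ra was highest in doxorubicin library 1 (31.5 CPM) and Tcf4 in doxorubicin library 3 (26.2 CPM). Endothelial markers summed highest in control library 3 (1236 CPM, against 1235 CPM in doxorubicin library 2). The 13 macrophage markers had a summed level of 297, 282 and 281 CPM in control and 335, 553 and 372 CPM in doxorubicin libraries, and 11 of the 13 were highest in library 2. All 3 doxorubicin sums were above the control sums, while 0 of the 13 passed the adjusted threshold in edgeR. The 4 neutrophil markers summed to 4.58, 0.889 and 3.12 CPM in control and 4.49, 13.1 and 23.6 CPM in doxorubicin libraries, with Mpo listed at 0. The 11 T and NK cell markers summed to 32.8, 33.8 and 31.2 CPM in control and 29.9, 38.1 and 27.1 CPM in doxorubicin libraries, with the 3 Cd3 genes at 0 to 10 counts. B cell markers had 0 to 5 counts. Of the 4 general leukocyte markers Ptprc, on 5 rows, was listed at 0, and the sum was 62.2, 52.4 and 47.7 CPM in control and 46.2, 79.9 and 42.7 CPM in doxorubicin libraries. Control library 1, the lowest for 13 members, had the highest erythroid marker sum, 6860 CPM against 636 to 2468 CPM in the other libraries, and the lowest fibroblast marker sum, 763 CPM against 1093 to 1289 CPM. The part of any of these cells in the levels of the interferon genes was not tested.

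**Figure D4:**
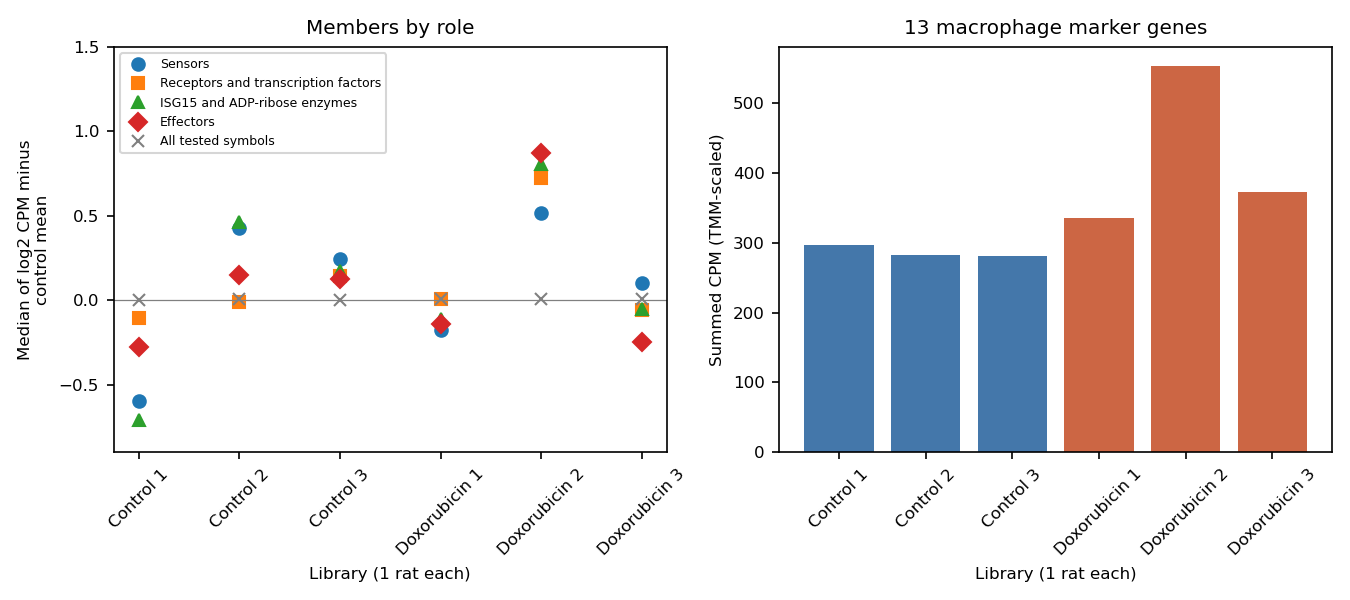
Left, the median over the tested members of each role of log2 CPM minus the control mean, for each library, with all 9205 tested symbols as gray crosses near 0. Right, the summed TMM-scaled CPM of 13 macrophage markers in the same libraries, control in blue and doxorubicin in orange. All 4 roles and the macrophage sum have their highest value in doxorubicin library 2.

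By role, the median distance of doxorubicin library 2 from the control mean was 0.52 on the log2 scale for sensors, 0.72 for receptors and transcription factors, 0.81 for the ISG15 and ADP-ribose enzymes and 0.87 for effectors, while over all tested symbols it was 0.01. In doxorubicin libraries 1 and 3 the corresponding medians lay between -0.25 and 0.10. In control library 1 they were -0.60 for sensors, -0.71 for the ISG15 and ADP-ribose enzymes, -0.27 for effectors and -0.10 for receptors and transcription factors. Of the tested members with upstream sequence, doxorubicin library 2 was the highest for 12 of 14 with the ISRE letters and for 8 of 11 without them.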

How the data were processed

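The authors deposited 1 table of raw read counts for the 6 libraries, made with HTSeq after FastQC, Trimmomatic and STAR on the mRatBN7.2 build, per the submitters' processing notes. Versions, annotation, counting mode and use of strand were not given in the sources used here, so reads of paralogs or overlapping genes may be lost or shared. The 18473 rows were summed to 17487 symbols. Symbols were kept by edgeR's filterByExpr (minimum count 10, minimum total 15), which retained at least 99.65% of each library's counts. Groups were compared with edgeR 4.0.16 (R 4.3.3) by the robust quasi-likelihood test with TMM factors, without a replicate block, on all 9205 symbols, with Benjamini-Hochberg adjustment over all of them and a threshold of 0.05. Standard errors were the fold change divided by the square root of F. Log2 CPM used a prior count of 2. The floor of 3 counts covers counting error only.

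The members and lists were chosen with earlier results of these data known. A fit was given for members whose groups did not overlap and for the 3 with the smallest p in each role, 12 in all, and for 5 more chosen after their values were seen. Upstream sequences came from RefSeq (GRCr8), a different build from that of the counts, so their coordinates hold for GRCr8 alone. The 16 alternatives included DESeq2 1.42.0 and limma 3.58.1 voom, other normalizations and filters, a replicate block and leaving out each library.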

Additional observations from a re-analysis of the deposited data

How the results depend on the processing

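No member passed the adjusted threshold under any of the 16 alternatives, and the lowest adjusted p of the 17 members with a fit was 0.325. Over all symbols, 5 passed with TMM and edgeR, 75 with DESeq2, 61 with no filter, 13 with the replicate block, 1 with non-robust dispersion, and 0 with library size alone or limma voom; leaving out 1 library gave 0 to 35. Members with an unadjusted p under 0.05 numbered 2 with no filter (5.71%, against 7.49% of all symbols) and 0 to 7 when 1 library was left out (0 without control library 1, against 5.61%, and 7, or 21.9%, without doxorubicin library 2, against 9.53%). Members whose groups did not overlap numbered 2 with library size alone (6.25%, against 14.0% of all symbols), and 0 to 9 with 1 library left out, the 9 (28.1%, against 26.1%) without doxorubicin library 2. The members' median log2 fold change ran from -0.15 (without doxorubicin library 2) to 0.36 when 1 library was left out, and was 0.27 with library size alone, where the median of all symbols was 0.10, and 0.18 with the replicate block. Whether the replicate numbers pair the libraries was not stated. Same-numbered libraries had deviation correlations of 0.0211, -0.185 and -0.0559, which cannot settle it with 3 libraries in each group. Signs turned in 16 of 272 single fits, in 9 of the 17 members. Irf7 was -0.10 and Rtp4 -0.23 with voom, and -0.10 and -0.18 with the block. With 1 library left out, log2 fold changes ran from -0.0086 to 0.72 for Parp14, -0.094 to 0.69 for Parp9, -0.0099 to 0.34 for Trim25, -0.37 to 0.40 for Usp18, -0.56 to 0.19 for Bst2, -0.68 to 0.49 for Irf7, -0.94 to 0.23 for Isg15, -1.28 to 0.034 for Oas1a and -0.79 to 0.32 for Rtp4. The cause was not tested. At this depth a difference in Zbp1 was not detectable.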

Other observations

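Among pathway genes too low for the test, Oas2, another oligoadenylate synthetase, had 2, 2 and 11 counts in the control and 1, 27 and 1 counts in the doxorubicin libraries, again with doxorubicin library 2 highest. Ly6e, a membrane protein that limits viral entry, had a log2 fold change of -0.29 with all libraries and of -0.76 without doxorubicin library 2, with edgeR adjusted p of 0.830 and 0.244.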
